A study of Homo sapiens with 11 samples.

Results

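The genes described here are 40 genes of the cellular response to low oxygen and of glycolysis, followed in MDA-MB-468 cells treated with tumour necrosis factor, the flavonoid apigenin, or both. A gene was measured where at least 1 probe set (the group of array probes that reports a transcript) carried its symbol and no other, and of several such probe sets the one brightest on average across the arrays was used. By that rule 37 of the 40 genes were measured, of 22395 genes in all. CA9 (a carbonic anhydrase) and SLC16A3 (a lactate exporter) have no such probe set in the annotation used here and were not analysed. BNIP3 (a mitophagy receptor) shares its probe set with a pseudogene and is given no value. A gene entered the tests where at least 2 arrays reached 2.53, the median of the probe set means on the log2 scale. That kept 15865 genes of the array and 36 of the 37 measured members. The exception was the glucose transporter SLC2A3, which lay between 1.42 and 2.01 on all 11 arrays. Of the 36, 15 are glycolytic enzymes and 21 are other hypoxia genes.

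The MDA-MB-468 line was established from the pleural effusion of a breast cancer and lacks the receptors that define other breast cancer classes (triple-negative). The groups were TNF plus apigenin (3 arrays), TNF at 40 ng/ml (3 arrays), apigenin at 40 µM (2 arrays) and untreated control cells (3 arrays); the combination used both agents at these same doses, and treatment lasted 24 h. All cells grew in 95% air and 5% CO2 in medium with 4500 mg/L glucose, so no group was held at low oxygen, and both agents were prepared in the same salt solution. The labels do not say whether replicates of a group came from separate cultures, so the p-values reflect array-to-array spread that may be technical, and the small number of arrays limits the precision.

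Under normal oxygen, prolyl hydroxylases of the EGLN family mark the alpha subunits of the hypoxia-inducible factors for destruction, and when oxygen runs short the stabilised factors bind a short core motif in DNA and switch on genes for glucose uptake, glycolysis, blood supply, collagen modification and mitophagy. Much of this control acts on the HIF proteins, which an expression array does not measure. Many tumour lines keep glycolysis high in full oxygen, and inflammatory signalling through NF-kB is a known inducer of HIF1A transcription.

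The array values are log2 signals as the authors deposited them, 0.38 to 12.31, and carry no detection calls. Array medians over the tested genes were 4.08 to 4.32 (interquartile range 2.63 to 2.91) on 10 arrays. The array of the first apigenin replicate stood apart, with a median of 3.89 and an interquartile range of 2.40, and apigenin results are given with and without it where they rest on it. The median change of all tested genes was -0.18 in apigenin against control, 0.16 in TNF plus apigenin against apigenin, and between -0.04 and 0.02 in the comparisons without the group given apigenin alone. The epithelial markers EGFR (10.53 to 11.14), EPCAM (8.83 to 9.38) and CDH1 (7.70 to 8.54) were high on every array, the keratins KRT7, KRT8 and KRT18 lay between 3.61 and 6.18, and the receptor genes ESR1 (1.93 to 2.72) and PGR (1.40 to 1.66) were low. Of 11 markers of leukocytes, endothelium and fibroblasts, 9 were measured and 6 lay below 2.53 on every array. The endothelial marker CDH5 differed between groups, at 2.89 to 3.32 in TNF plus apigenin cells, 4.13 to 4.64 in TNF cells, 2.18 to 2.69 in apigenin cells and 3.46 to 3.47 in control cells. The other measured ones above that level were CD68 (4.67 or more) and COL1A1 (3.10 to 3.56). The markers' summed linear level was 78.4 to 104.4 in TNF plus apigenin cells, 78.8 to 94.2 in TNF cells, 64.3 to 84.6 in apigenin cells and 76.1 to 90.2 in control cells. Without CD68, which made up much of it, the sum was 38.0 to 40.4 in TNF plus apigenin cells, 48.2 to 54.7 in TNF cells, 37.1 to 38.9 in apigenin cells and 40.1 to 44.1 in control cells, so that the TNF arrays lay above all others. This sum still holds CDH5, itself highest in TNF cells, so it does not show a general rise of these markers. The part of these markers in the results was not tested.

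The 250 bases before 1 annotated start per gene, the first listed (RefSeq, GRCh38.p14), were searched for the core motif. It was written as ACGTG or GCGTG and, on the other strand, as CACGT or CACGC. Some members have several starts listed, such as HK1 with 7 and PFKP with 4, and their other starts were not used. The palindrome CACGTG was counted on both strands. Promoters were listed for 33 of the 37 measured members, with SLC2A3, BNIP3L, VEGFA and NDRG1 without an entry. At least 1 motif stood in 23 of the 33 promoters (69.7%), against 11763 of 27305 gene promoters in the table (43.1%). The enzymes had it in 10 of 15 promoters and the other hypoxia genes in 13 of 18. The members' promoters were also richer in G and C, with a median of 69.6% against 58.0% for all promoters, and the part of base composition in the motif share was not tested. The promoters of 3 genes are shown with the motifs in capitals, 5′ to 3′ on the gene's strand: ADM and LOX, the members with the largest sizes of difference from control, and LDHA, the enzyme with the largest in apigenin cells.
ADM, chr11:10304823-10305072, plus strand: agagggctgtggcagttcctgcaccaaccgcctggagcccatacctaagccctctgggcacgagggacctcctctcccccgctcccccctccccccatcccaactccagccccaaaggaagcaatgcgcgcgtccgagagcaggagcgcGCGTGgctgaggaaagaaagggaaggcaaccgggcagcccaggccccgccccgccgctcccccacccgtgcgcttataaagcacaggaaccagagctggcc
LOX, chr5:122078260-122078509, minus strand: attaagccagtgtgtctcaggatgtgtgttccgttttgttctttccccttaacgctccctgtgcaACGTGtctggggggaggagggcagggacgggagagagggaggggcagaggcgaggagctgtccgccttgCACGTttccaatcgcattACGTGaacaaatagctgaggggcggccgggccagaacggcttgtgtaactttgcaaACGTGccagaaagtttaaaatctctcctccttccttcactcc
LDHA, chr11:18394313-18394562, plus strand: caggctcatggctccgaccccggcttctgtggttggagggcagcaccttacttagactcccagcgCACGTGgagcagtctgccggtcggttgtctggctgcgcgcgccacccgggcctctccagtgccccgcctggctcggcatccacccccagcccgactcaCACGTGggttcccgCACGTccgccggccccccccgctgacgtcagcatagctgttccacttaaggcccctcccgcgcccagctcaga
ADM had 1 motif, 101 bases before the start, LOX had 4 between 185 and 42 bases before it, and LDHA had 5, of which 4 form a pair of palindromes. A match describes the letters of the promoter and does not show that a factor binds there.

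Adrenomedullin, ADM, was the only member called in any of the 6 comparisons at a limma adjusted p under 0.05 over all 15865 genes. ADM encodes a secreted vasodilator peptide and is a classical HIF target. Its log2 signal was 5.84, 6.04 and 5.73 in TNF plus apigenin cells, 5.50, 5.58 and 5.51 in TNF cells, 5.50 and 5.51 in apigenin cells, and 4.96, 4.61 and 5.22 in control cells. Every treated array lay above every control array, and every TNF plus apigenin array lay above all arrays of the single treatments. In TNF plus apigenin against control, ADM rose by 0.94 ± 0.18 (SE; 95% interval 0.56 to 1.32), a 1.92-fold difference with a limma adjusted p of 0.00986. That made 1 of 36 members called, where 2.82% of all tested genes were called either way and 1.04% were called higher. At an unadjusted p under 0.05, ADM and LOX were higher and EPAS1, EGLN1 and NDRG1 were lower in that comparison, beside 7.15% and 8.79% of all genes. Without the second TNF plus apigenin array the difference was 0.86 and the adjusted p was 0.0611; without any other single array it was 0.78 to 1.08 and remained called.

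Each agent alone gave a smaller ADM difference that missed the threshold. The size was 0.60 ± 0.18 in TNF against control (1.51-fold, limma adjusted p = 0.244) and 0.58 ± 0.20 in apigenin against control (1.49-fold, adjusted p = 0.125). The apigenin difference was called in 2 of the 10 processing alternatives, once arrays were quantile normalised (0.85, adjusted p = 0.0219) or shifted to a common median (0.79, adjusted p = 0.0234). It was as low as 0.42 among the 10. With 1 array left out, the apigenin difference was 0.42 to 0.72 and the TNF difference 0.44 to 0.74. Adding apigenin to TNF gave 0.34 ± 0.18 (adjusted p = 0.513), adding TNF to apigenin gave 0.36 ± 0.20 (adjusted p = 0.388), and the interaction was -0.24 ± 0.27 (95% interval -0.81 to 0.34, adjusted p = 0.757). These comparisons share arrays and are not independent of each other. The cells are a bulk extract brought to 1 RNA concentration, so more cells carrying a transcript and more transcript per cell cannot be told apart.

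**Figure D1:**
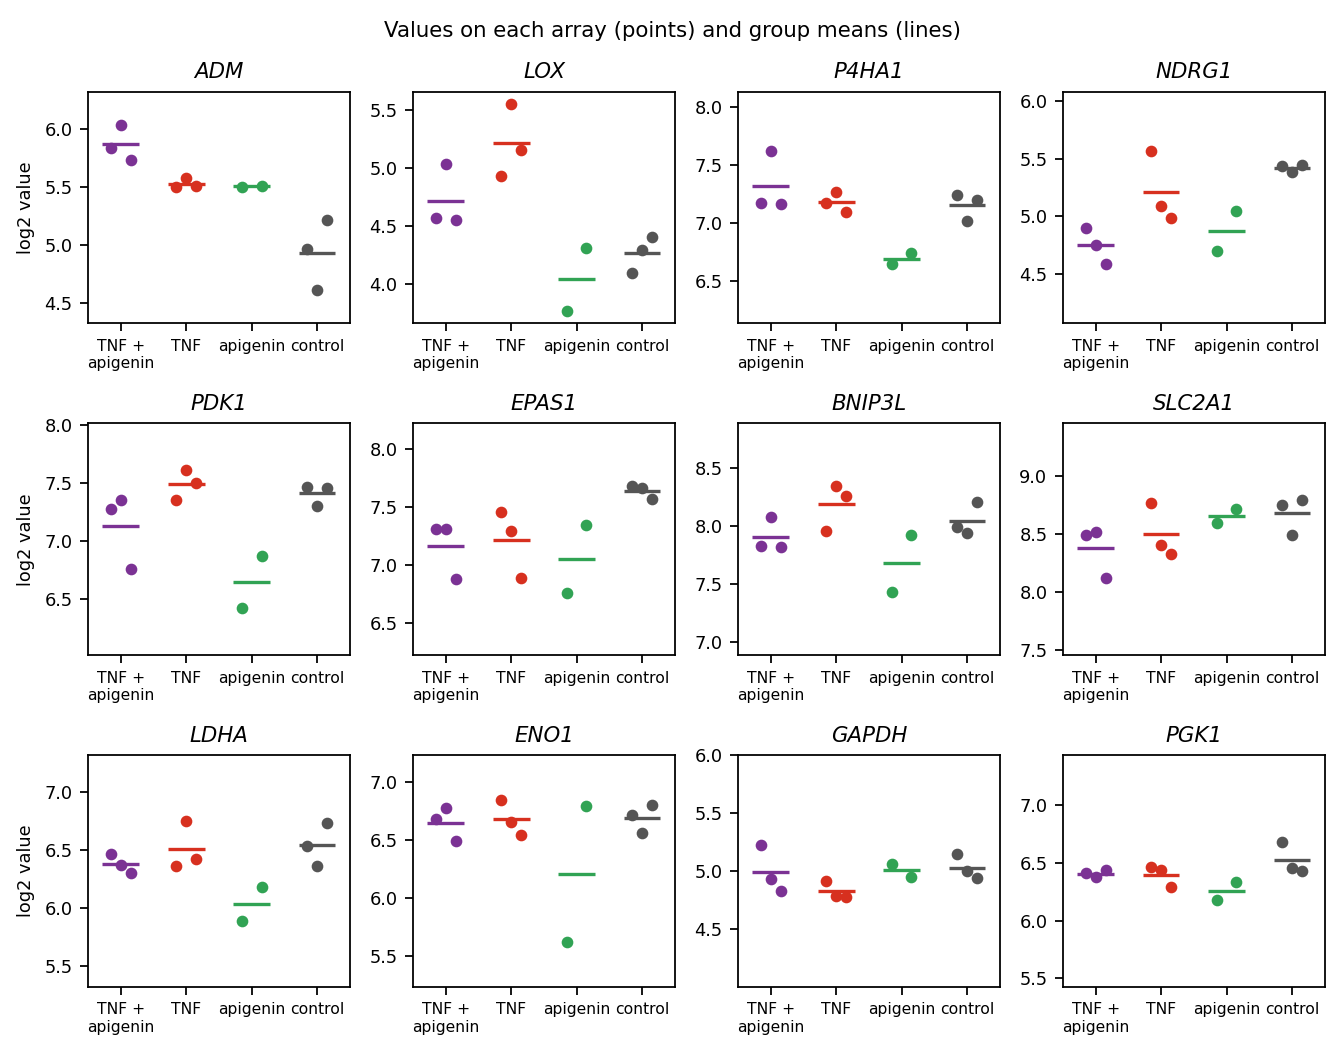
Log2 signal of 12 members on every array, by group (TNF plus apigenin, TNF, apigenin, control); each point is 1 array, each line a group mean, and each panel spans 2 log2 units. ADM lies at 5.73 to 6.04 in TNF plus apigenin cells against 4.61 to 5.22 in control cells, LOX has its highest mean in TNF cells, and PDK1 its lowest in apigenin cells.

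The other secreted factors stayed uncalled. VEGFA, the main angiogenic growth factor, lay between 6.52 and 7.30 on all arrays, and ANGPTL4, an inhibitor of lipoprotein lipase, between 2.87 and 3.45. The VEGFA values were 7.17, 7.11 and 6.84 in TNF plus apigenin cells, 6.79, 6.76 and 6.52 in TNF cells, 6.91 and 7.30 in apigenin cells, and 6.95, 6.97 and 6.85 in control cells. The TNF arrays of VEGFA lay below all control arrays, a difference of -0.23 that was not called. The TNF plus apigenin arrays of VEGFA lay above the TNF arrays without overlap and overlapped the control arrays. Among the members, non-overlap of this kind in TNF plus apigenin against TNF was seen for 3 higher and 5 lower genes of 36, where 8.62% and 7.05% of all tested genes were apart in those directions.

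The collagen-modifying enzymes comprised LOX, which cross-links collagen and elastin, PLOD2, a lysyl hydroxylase, and P4HA1 and P4HA2, catalytic subunits of collagen prolyl hydroxylase. LOX had the largest TNF difference of any member. Its log2 signal was 4.57, 5.03 and 4.56 in TNF plus apigenin cells, 4.93, 5.55 and 5.16 in TNF cells, 3.77 and 4.31 in apigenin cells, and 4.09, 4.30 and 4.40 in control cells. All TNF arrays lay above all control arrays. The difference, 0.95 ± 0.21 (95% interval 0.50 to 1.41, 1.93-fold), had a limma adjusted p of 0.0592 and was not called. It passed in 6 of the 10 other processing alternatives, and the adjusted p reached 0.113 in the rest. With 1 array left out it was 0.78 to 1.09, and the adjusted p reached 0.28. Leaving out an apigenin array cannot move this difference, since it is the TNF mean minus the control mean. With apigenin added to TNF, LOX differed by -0.50 ± 0.21 from TNF alone (adjusted p = 0.39), and TNF plus apigenin differed by 0.68 ± 0.24 from apigenin (adjusted p = 0.199). That last difference was 0.41 (adjusted p = 0.806) without the first apigenin array and 0.95 (adjusted p = 0.0648) without the other one.

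PLOD2 showed 9.05, 9.14 and 9.14 in TNF cells against 8.82, 8.59 and 8.75 in control cells, a difference of 0.39 ± 0.17 that was not called (limma adjusted p = 0.614). The TNF and control arrays of PLOD2 did not overlap. P4HA1 was 7.17, 7.62 and 7.16 in TNF plus apigenin cells, 7.18, 7.27 and 7.10 in TNF cells, 6.64 and 6.74 in apigenin cells, and 7.24, 7.02 and 7.20 in control cells. P4HA2 lay between 4.19 and 4.71 on all arrays. For P4HA1 both apigenin arrays lay below all other arrays. The P4HA1 difference was -0.46 ± 0.19 in apigenin against control (adjusted p = 0.2) and 0.63 ± 0.19 in TNF plus apigenin against apigenin (adjusted p = 0.151). The 4 collagen-modifying genes spanned 0.03 to 0.95 in TNF against control (median 0.29), where 58.4% of all tested genes lay below 0. They spanned -0.46 to -0.06 in apigenin against control (median -0.29), where 72.3% of all genes lay below 0 with a median of -0.18. Their differences were 0.39 to 0.68 in TNF plus apigenin against apigenin, where 29.1% of all genes lay below 0 with a median of 0.16, and none was called. Signs in both comparisons with the apigenin group thus ran the way of most genes on these arrays.

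In TNF against control 0 of 36 members were called by limma, where 0.700% of all tested genes were. At an unadjusted p under 0.05, ADM, LOX and PLOD2 were higher and PFKFB4 was lower, where 2.82% and 4.59% of all genes met that threshold in those directions. PFKFB3, which spanned 4.62 to 5.58 over all arrays, and PFKFB4 belong to the kinases that set the level of the allosteric activator of phosphofructokinase. PFKFB4 measured 3.13, 3.14 and 3.29 in TNF cells against 3.67, 3.94 and 3.44 in control cells, without overlap, a difference of -0.50 ± 0.20 (adjusted p = 0.544). Changes over all 36 members ran from -0.50 to 0.95 with a median of -0.11, beside -0.04 for all tested genes. The 95% interval lay within 1 log2 unit either way for 34 of the 36. A missed threshold does not show that the genes were alike in both groups.

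The oxygen-sensing genes were not called in any comparison. HIF1A, the oxygen-regulated alpha subunit, lay between 8.38 and 9.04 on all arrays, with 8.65, 8.80 and 8.74 in TNF cells against 8.86, 8.72 and 8.90 in control cells, and the groups overlapped. EPAS1, a related alpha subunit, was 7.31, 7.31 and 6.88 in TNF plus apigenin cells, 7.46, 7.30 and 6.89 in TNF cells, 6.76 and 7.35 in apigenin cells, and 7.68, 7.66 and 7.57 in control cells. All treated arrays of EPAS1 lay below all control arrays. The EPAS1 difference was -0.47 ± 0.21 in TNF plus apigenin (limma adjusted p = 0.275), -0.42 ± 0.21 in TNF (adjusted p = 0.699) and -0.58 ± 0.23 in apigenin (adjusted p = 0.175), each against control.

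EGLN1, the main hydroxylase that marks HIF for destruction, was 7.34, 7.38 and 7.05 in TNF plus apigenin cells, 7.54, 7.65 and 7.61 in TNF cells, 7.02 and 7.04 in apigenin cells, and 7.72, 7.53 and 7.55 in control cells. The arrays with apigenin lay below those without it. In apigenin against control, EGLN1 differed by -0.58 ± 0.18 (limma adjusted p = 0.089). EGLN3, an EGLN family member that is itself hypoxia-inducible, lay between 3.10 and 3.89 on all arrays.

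In apigenin against control 0 of 36 members were called, where 3.66% of all tested genes were and 3.44% were called lower. At an unadjusted p under 0.05, 8 members were lower (PDK1, EGLN1, EPAS1, NDRG1, LDHA, P4HA1, ANKRD37 and KDM3A) and ADM was higher, where 17.5% and 2.02% of all genes met that threshold in those directions. The apigenin arrays lay below all control arrays for 15 of the 36, 11 of 21 other hypoxia genes and 4 of 15 enzymes, where 26.9% of all genes did, and above them for 3, where 4.69% did. The median change was -0.25 over the members and -0.18 over all tested genes, with -0.24 for the enzymes and -0.35 for the other hypoxia genes. Without the first apigenin array these medians were -0.04 for all tested genes, of which 55.4% then lay below 0, -0.08 for the enzymes and -0.14 for the other hypoxia genes. In that fit the single differences from control shrank to -0.29 for EPAS1, -0.37 for NDRG1, -0.36 for LDHA and -0.12 for BNIP3L, while EGLN1 (-0.57), P4HA1 (-0.41) and ADM (0.58) moved little, none of them called (adjusted p 0.307 to 0.93).

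PDK1, the kinase that holds back entry of pyruvate into mitochondria, had the largest apigenin difference of the members. It was 7.28, 7.36 and 6.76 in TNF plus apigenin cells, 7.36, 7.61 and 7.50 in TNF cells, 6.42 and 6.87 in apigenin cells, and 7.47, 7.31 and 7.46 in control cells. Both apigenin arrays lay below all control arrays. The PDK1 difference was -0.77 ± 0.22 (95% interval -1.23 to -0.30), with a limma adjusted p of 0.0656. It was -0.54 (adjusted p = 0.431) without the first apigenin array and -0.99 (adjusted p = 0.0355) without the other one.

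NDRG1, a stress-responsive gene induced by hypoxia and metals, was 4.90, 4.75 and 4.59 in TNF plus apigenin cells, 5.56, 5.09 and 4.99 in TNF cells, 4.70 and 5.05 in apigenin cells, and 5.44, 5.38 and 5.45 in control cells. Both treatments with apigenin lay below control without overlap. In TNF plus apigenin against control NDRG1 differed by -0.67 ± 0.19 (95% interval -1.07 to -0.28, limma adjusted p = 0.0724), and it was called after quantile normalisation, a common median or array weights (adjusted p 0.0189, 0.0266 and 0.0177). In apigenin against control the difference was -0.55 ± 0.21 (adjusted p = 0.161).

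ANKRD37, an ankyrin-repeat protein whose gene is a HIF target, measured 3.53 on both apigenin arrays and 3.71 to 4.20 on all others. Both apigenin values were exactly 3.531, and 3.935 recurred on arrays of other groups. Some other members also repeat a value across arrays and groups, such as ENO2 at 3.456. Such repeats are not read as agreement of replicates, and their cause was not tested. ANKRD37 ranked first of the members by unadjusted interaction p, and its log2 interaction was 0.65 ± 0.24 (limma adjusted p = 0.551). For the interaction 0 of 36 members were called, where 0.0252% of all tested genes were, and ANKRD37 and P4HA1 were the 2 members at an unadjusted p under 0.05, both higher, where 7.14% of all genes lay higher and 1.02% lower at that threshold. KDM3A, a histone demethylase, ranged over 5.51 to 6.32 and MXI1, a MYC antagonist, over 3.65 to 4.44. BNIP3L, a mitophagy receptor, was 7.83, 8.08 and 7.82 in TNF plus apigenin cells, 7.96, 8.35 and 8.26 in TNF cells, 7.43 and 7.93 in apigenin cells, and 7.99, 7.94 and 8.21 in control cells. The apigenin arrays of BNIP3L lay below the control arrays, 1 of them narrowly, and the difference of -0.37 was not called. CA12, a membrane carbonic anhydrase, was near the filter in all groups, with 2.70, 3.06 and 2.84 in TNF plus apigenin cells, 2.68, 2.43 and 2.84 in TNF cells, 2.92 and 2.89 in apigenin cells, and 2.82, 2.84 and 2.91 in control cells. The CA12 groups overlapped.

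**Figure D2:**
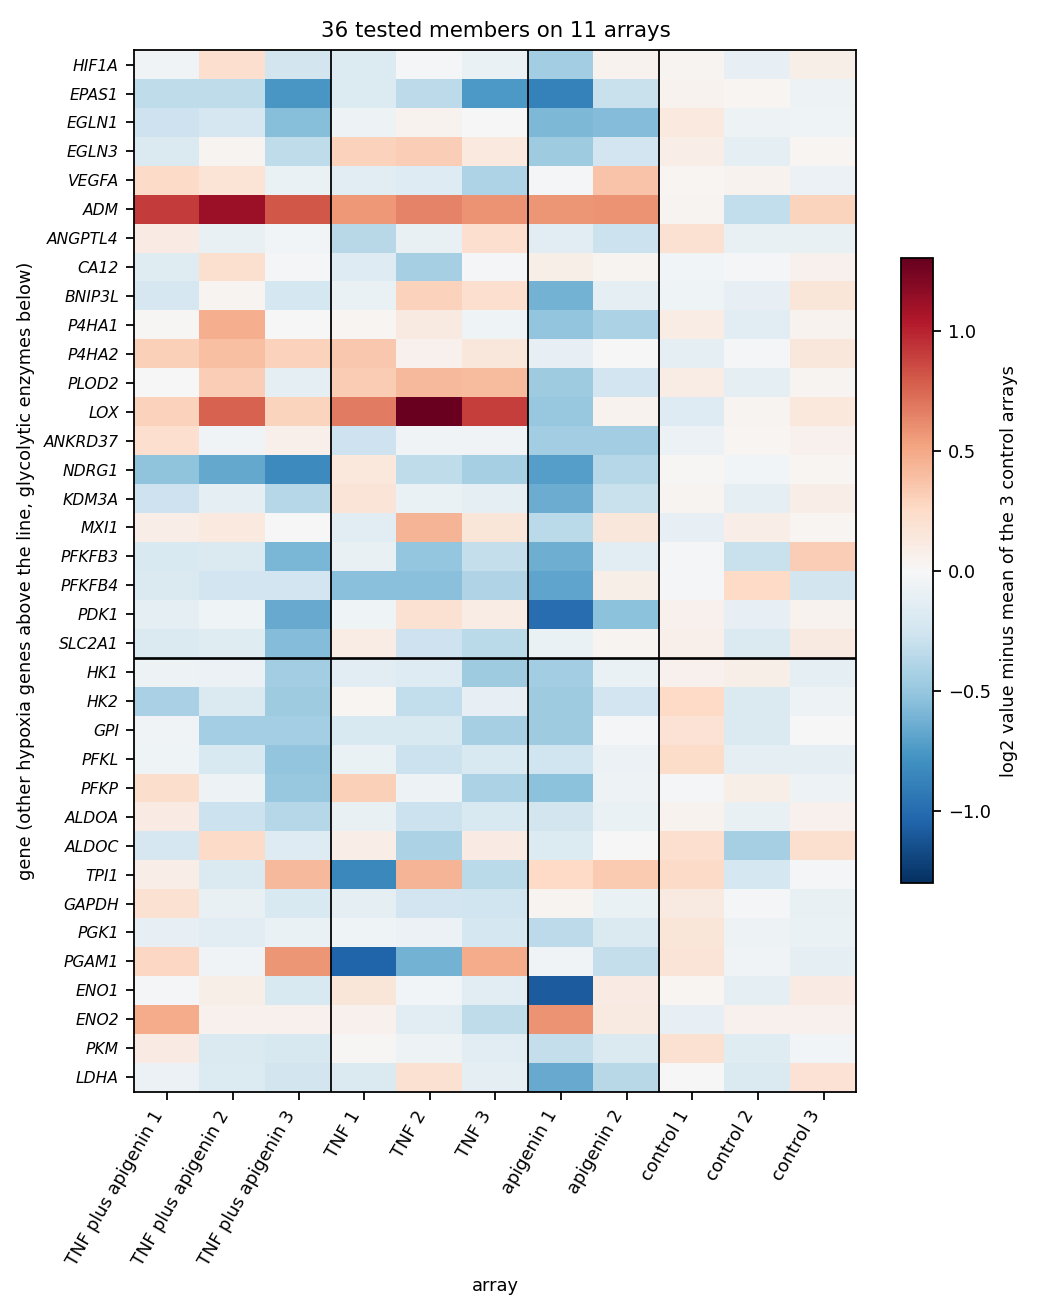
Log2 signal of each tested member on each array minus that gene's control mean, with members in rows by role and the 11 arrays in columns by group. ADM is above control in every treated array, LOX and PLOD2 are above it in every TNF array, and the first apigenin array is below control for most members.

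The glucose transporter SLC2A1, the principal glucose importer of many tumour cells, was 8.50, 8.52 and 8.12 in TNF plus apigenin cells, 8.77, 8.41 and 8.33 in TNF cells, 8.60 and 8.72 in apigenin cells, and 8.75, 8.49 and 8.80 in control cells. The apigenin values lay within the control range. SLC2A1 differed by -0.02 in apigenin against control, a sign that turned under 2 scalings and without some single arrays, and by -0.30 in TNF plus apigenin against control, neither called.

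No glycolytic enzyme was called in any of the 6 comparisons. LDHA, which turns pyruvate into lactate, was 6.47, 6.37 and 6.31 in TNF plus apigenin cells, 6.36, 6.75 and 6.42 in TNF cells, 5.89 and 6.18 in apigenin cells, and 6.54, 6.36 and 6.74 in control cells. Both apigenin arrays lay below all other arrays, and the difference from control was -0.51 ± 0.20 (95% interval -0.93 to -0.09, limma adjusted p = 0.165), the largest size of any enzyme in that comparison. ENO1, the main enolase, was 6.68, 6.78 and 6.50 in TNF plus apigenin cells, 6.85, 6.66 and 6.54 in TNF cells, 5.62 and 6.80 in apigenin cells, and 6.72, 6.56 and 6.80 in control cells. Its apigenin difference of -0.49 ± 0.27 rested on 1 array, since it was 0.10 without the first apigenin array and -1.08 (limma adjusted p = 0.019) without the other.

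At the head of the pathway the hexokinases, which trap glucose as its phosphate, spanned 5.51 to 6.05 (HK1) and 5.03 to 5.75 (HK2) over all arrays, and GPI, which isomerises that phosphate, spanned 8.36 to 9.01. The phosphofructokinase subunits PFKL and PFKP spanned 5.89 to 6.64 and 5.35 to 6.20, and the aldolases ALDOA and ALDOC, which split the sugar, 5.92 to 6.40 and 2.88 to 3.57. None of these enzymes was called in any comparison. Toward the end of the pathway, ENO2, the neuronal enolase, spanned 3.07 to 3.98 and PKM, the pyruvate kinase, 8.45 to 8.96. ENO2 measured 3.98 and 3.52 in apigenin cells against 3.29, 3.46 and 3.46 in control cells, higher without overlap but not called.

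GAPDH and PGK1, the enzymes of consecutive middle steps, varied little. GAPDH lay between 4.78 and 5.23 and PGK1 between 6.18 and 6.68 on all arrays. PGAM1 and TPI1 varied most: PGAM1 was 3.09, 3.52 and 4.62 in TNF cells against 4.30, 4.09 and 4.02 in control cells, and TPI1 was 2.54, 3.81 and 3.02 in TNF cells against 3.62, 3.14 and 3.36 in control cells. The spread of both within TNF cells exceeded the distance between the groups. The lowest TPI1 value, 2.54, lay just above the filter. Several enzymes had low mean signals over all arrays: ALDOC 3.27, TPI1 3.39, ENO2 3.48, PGAM1 4.07 and GAPDH 4.96. GPI (8.62) and PKM (8.67) were far brighter. How well the dimmer probe sets report their transcripts was not tested, so their small or uncalled changes may not reflect expression. PGAM1 differed by 0.66 ± 0.30 in TNF plus apigenin against TNF (limma adjusted p = 0.427), and by 1.09 (adjusted p = 0.0409) without the third TNF array. RefSeq lists 65 pseudogenes named after GAPDH, 13 after PGAM1, 6 after LDHA and 4 each after TPI1 and ENO1, and the part of such copies in these signals was not tested.

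In TNF against control all 15 enzymes lay below 0, with changes of -0.39 to -0.01 and a median of -0.14, where 58.4% of all tested genes lay below 0 with a median of -0.04. The other hypoxia genes had 12 of 21 below 0 and a median of -0.01. After quantile normalisation 12 of the 15 enzymes were below 0, after a shift to a common median 13, and without single control or TNF arrays 12 to 15. In apigenin against control 13 enzymes lay below 0, beside 72.3% of all genes, and 8 did after either scaling and 11 without the first apigenin array. For TNF plus apigenin against control the count was 12, beside 53.7% of all genes.

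The median change of the enzymes minus that of the other hypoxia genes was -0.12 in TNF against control, 0.11 in apigenin against control, 0.05 in TNF plus apigenin against TNF, -0.09 in TNF plus apigenin against control and -0.17 in TNF plus apigenin against apigenin. The same difference taken array by array had an SD of 0.105 between arrays of a group. For the interaction the difference of medians was 0. Single arrays moved these values: without the second TNF plus apigenin array the difference was 0.01 against control, so that its sign turned, and 0.12 against TNF, and without the third it was 0 against TNF. No p-value is given for these medians, since the members were chosen with results known. The enzymes spanned -0.39 to -0.01 and the other hypoxia genes -0.50 to 0.95 in TNF against control, and in TNF plus apigenin against control the spans were -0.36 to 0.26 and -0.67 to 0.94. None of the enzymes separated TNF plus apigenin from control arrays without overlap. Of the other hypoxia genes, 3 lay higher and 3 lower, beside 8.69% and 11.4% of all genes. In TNF against control, 4 of the 15 enzymes (HK1, GPI, ALDOA and GAPDH) lay below all control arrays, beside 8.72% of all genes. Their differences were -0.27 to -0.19, none called, and no enzyme lay above. These separations were narrow. The highest TNF and the lowest control value were 5.826 and 5.852 for HK1 and 8.631 and 8.636 for GPI. For GAPDH they were 4.917 and 4.939, and for ALDOA both read 6.198. Of the 21 other hypoxia genes, 3 lay lower and 4 higher in that comparison, where 4.62% of all genes lay higher.

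**Figure D3:**
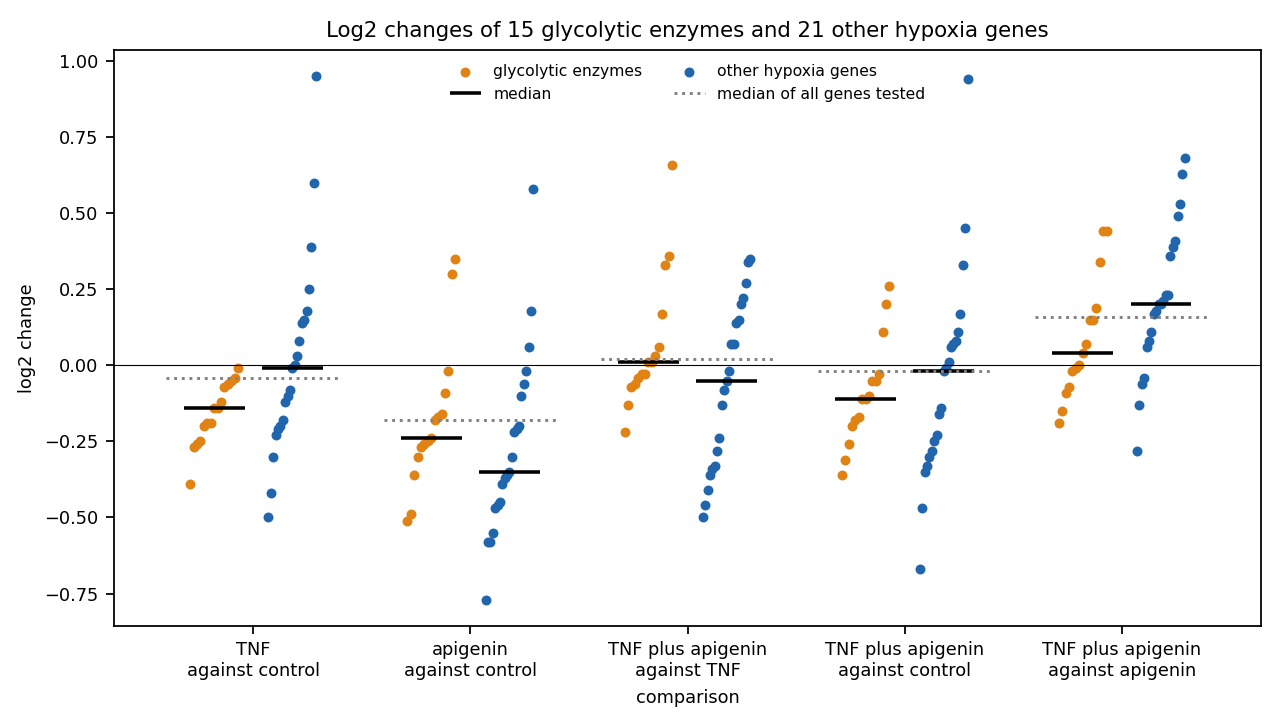
Log2 change of each tested member in each comparison, with the 15 glycolytic enzymes and the 21 other hypoxia genes as separate points and the median of each class and of all tested genes marked. The enzyme medians are -0.14 in TNF and -0.24 in apigenin against control, and the widest changes from control (LOX at 0.95 in TNF, ADM at 0.94 in TNF plus apigenin, PDK1 at -0.77 in apigenin) belong to other hypoxia genes.

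Taken array by array, the median of the enzymes relative to control was -0.02, -0.14 and -0.21 in TNF plus apigenin arrays, -0.09, -0.17 and -0.20 in TNF arrays, -0.31 and -0.08 in apigenin arrays, and 0.16, -0.13 and -0.03 in control arrays. The other hypoxia genes gave -0.13, 0.03 and -0.23, then -0.07, -0.03 and -0.01, then -0.46 and -0.14, and 0.03, -0.10 and 0.05 in the same order of groups. Both classes were lowest on the first apigenin array, the one with the low median over all genes, and the part of that array's overall level in the apigenin values was not tested.

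**Figure D4:**
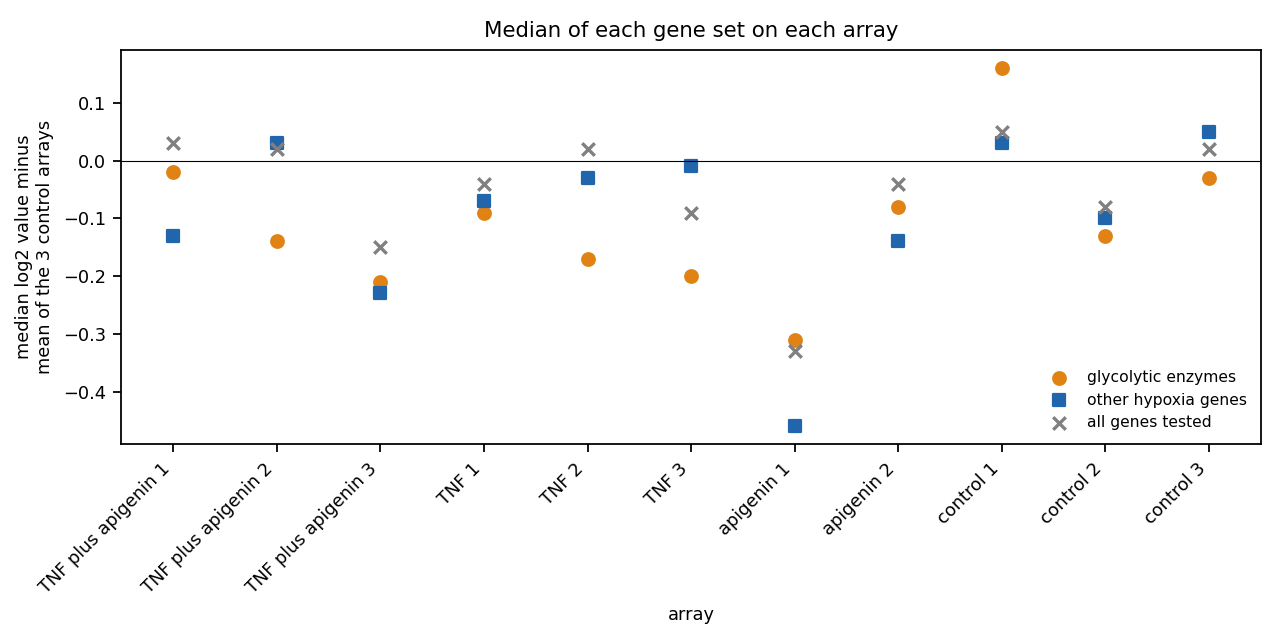
Median log2 signal relative to the control mean on each of the 11 arrays, for the glycolytic enzymes, the other hypoxia genes and all tested genes. The first apigenin array is lowest for both classes (-0.31 for the enzymes and -0.46 for the other hypoxia genes).

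In TNF plus apigenin against TNF 0 of 36 members were called, where 1.07% of all genes were; at an unadjusted p under 0.05, 1 member (PGAM1) was higher and 4 were lower, beside 5.93% and 5.20% of all genes. In TNF plus apigenin against apigenin 0 were called, where 0.574% were; 6 members (P4HA1, P4HA2, PLOD2, LOX, ANKRD37 and PDK1) were higher at an unadjusted p under 0.05 and none was lower, where 14.1% and 1.65% of all genes were. The groups of that comparison did not overlap for 10 members that were higher and 1 that was lower, beside 20.9% and 4.79% of all genes.

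Around the members, genes of neighbouring pathways were listed by function, and those called are named. Of all tested genes, 0.0252% (interaction) to 3.66% (apigenin against control) were called per comparison. Of 7 further genes of the HIF pathway, CITED2, which competes with HIF for its coactivators, fell in apigenin cells to 6.07 and 6.29, against 7.29, 7.13 and 7.43 in control cells (-1.10 ± 0.20, limma adjusted p = 0.00975). No array overlapped, and CITED2 was the only gene of that list called in any comparison. Of 13 other hypoxia-responsive genes, PPP1R3C, a glycogen-targeting phosphatase subunit, fell in TNF cells to 3.84, 4.44 and 4.16, against 5.20, 5.04 and 5.06 in control cells (-0.95 ± 0.19, adjusted p = 0.0303). PPP1R3C also fell in TNF plus apigenin against control, by 0.81 (adjusted p = 0.0331). From the same list, TMEM45A, a transmembrane protein, fell in apigenin cells by 0.92 (adjusted p = 0.0263). STC2, a secreted glycoprotein, rose in TNF plus apigenin cells to 7.46, 7.56 and 7.24, against 6.58, 6.68 and 6.62 in control cells (0.80 ± 0.17, adjusted p = 0.0171).

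Among 9 glucose transport and glycogen genes, the glucose transporter SLC2A12 rose in TNF cells to 5.60, 5.74 and 5.68, against 4.20, 4.48 and 4.29 in control cells (1.35 ± 0.16, 2.55-fold, limma adjusted p = 0.000362). With apigenin added to TNF it was 4.94, 4.87 and 4.59, below TNF alone by 0.87 (adjusted p = 0.0156) and above apigenin alone by 0.97 (adjusted p = 0.0263). SLC2A10, a transporter of the same family, was lower in apigenin cells by 0.85 (adjusted p = 0.0432), a call lost in 8 of 11 fits that left out 1 array. Of 9 genes of pyruvate and lactate handling, PDK4, a kinase of the same family as PDK1, fell in apigenin cells to 3.24 and 3.10, against 4.48, 3.80 and 4.55 in control cells (-1.10 ± 0.23, adjusted p = 0.0171), and in TNF plus apigenin cells by 0.91 (adjusted p = 0.0282). None of 8 tested glycolysis paralogs, 5 pentose phosphate genes or 7 TCA cycle genes was called in any comparison. With at most 3.66% of all tested genes called per comparison, that is no result about these short lists.

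With 1 array left out at a time the neighbouring genes kept their directions, but most calls were lost in some of these fits. The SLC2A12 call in TNF against control was kept in all 11 (adjusted p 0.000458 to 0.0042), and the CITED2 call was lost in 1, without the first apigenin array (adjusted p = 0.103). TMEM45A and PDK4 in apigenin against control were lost without the first control, the third control or the first apigenin array (adjusted p up to 0.267 and 0.0977). STC2 was lost without either of those control arrays or without the first or the second TNF plus apigenin array (adjusted p up to 0.0933), and PDK4 in TNF plus apigenin against control without either of those control arrays or any TNF plus apigenin array (up to 0.13). PPP1R3C in TNF against control was lost without any control array, the first or the third TNF array or the second TNF plus apigenin array (up to 0.162), and in TNF plus apigenin against control without any array of those groups (up to 0.13). SLC2A12 was lost against TNF without the second or the third array of TNF or of TNF plus apigenin (up to 0.0831), and against apigenin without the first apigenin array or the first or the second TNF plus apigenin array (up to 0.17). SLC2A10 was lost without any array but the second control, the second apigenin and the third TNF plus apigenin array (up to 0.328). Of the 10 other alternatives, the fit of the compared groups alone and the fit without both the second control and the first apigenin array ended the CITED2 call (adjusted p up to 0.0846) and the PPP1R3C call in TNF against control (up to 0.0719). TMEM45A was lost in 4 of the 10, SLC2A12 against apigenin in 4, SLC2A10 in 6 and each PDK4 call in 1, while the other neighbouring calls were kept in all 10.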

How the data were processed

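Total RNA of MDA-MB-468 cells was extracted with TRIzol and chloroform, brought to 1 concentration and hybridised to Affymetrix whole-transcript arrays, 11 in all. The values are on a log2 scale, as the authors deposited them. The submitters' processing notes name Affymetrix Expression Console. Which version, build and summarisation method were used is not given in the sources used here. That the base is 2 was taken from the range of the values. Of 53617 probe sets, 23871 carried 1 gene symbol, 1842 several and 27904 none; 22569 matched RefSeq by gene number, and 90 symbols were updated.

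No normalisation was added. Genes with at least 2 arrays at or above 2.53 were fitted with limma 3.58.1 (R 4.3.3), with 1 mean per group, all 11 arrays and 7 residual degrees of freedom; tests were two-sided, p-values were Benjamini-Hochberg adjusted over all 15865 genes, and the threshold was an adjusted p of 0.05. The procedure was run on simulated data with independent noise of the same spread on every array. No simulated array was shifted as the first apigenin array is, so the simulation does not bear on results that rest on that array. Intervals are 95%. The sources do not say why apigenin has 2 arrays.

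Members, lists and tests were chosen with earlier results of these data known. Values on every array were to be given for called members and, in each role group without one, for the member with the largest apigenin difference (EPAS1, CA12, BNIP3L, P4HA1, NDRG1, PDK1, SLC2A1 and LDHA). VEGFA, LOX, PLOD2, PFKFB4, HIF1A, EGLN1, ANKRD37, ENO1, PGAM1, TPI1, ENO2, GAPDH and PGK1 were added after their values were seen. Alternatives were 2 further normalisations, 2 filters, array weights, a fit of the compared groups only, a trended robust spread, averaged probe sets, a replicate block, and leaving out arrays.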

Additional observations from a re-analysis of the deposited data

How the results depend on the processing

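The ADM difference between TNF plus apigenin and control was called under every alternative except without the second TNF plus apigenin array, with adjusted p of 0.0114 to 0.0394 over the other fits that left out 1 array and up to 0.0322 over the remaining alternatives. Counts of called members moved by single genes. With quantile normalisation or a common median, 1 member (LOX) was called in TNF, 1 (ADM) in apigenin and 2 (ADM and NDRG1) in TNF plus apigenin, each against control. With all 11 arrays required above the filter, LOX in TNF (adjusted p = 0.0428) and PDK1 in apigenin (0.0485) made 1 each. With array weights, 1 was called in TNF and 2 in TNF plus apigenin, and with a trended robust spread 1 in TNF.

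Same-numbered arrays, each gene centred within its group, correlated at -0.24 to 0.275, above 0.1 in 4 of 15 pairs. Differently numbered arrays were not set beside them, so this cannot decide whether the numbers pair the samples. The main fit did not pair them. With the replicate block 1 member was called in TNF against control (LOX, 0.95, limma adjusted p = 0.0244). ADM kept its call in TNF plus apigenin against control (0.94, adjusted p = 0.0187). With 1 array left out, calls ranged over 0 to 1 in TNF against control, 0 to 2 in apigenin against control, and 0 to 1 in each comparison of TNF plus apigenin with TNF, control and apigenin. The enzyme median minus that of the other hypoxia genes ranged over -0.24 to -0.09 in TNF against control, 0.04 to 0.16 in apigenin against control, 0 to 0.12 in TNF plus apigenin against TNF, -0.13 to 0.01 against control, -0.26 to -0.09 against apigenin, and -0.11 to 0.07 in the interaction.

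SLC2A1 in apigenin against control turned to 0.19 under both normalisations and ranged over -0.12 to 0.03 with 1 array left out (0.01 without the first control, 0.03 without the third control or the first apigenin array). ENO1 in apigenin against control turned to 0.10 without the first apigenin array and 0.04 without it and the second control array, and was -1.08 without the other apigenin array. In TNF plus apigenin against apigenin ENO1 turned to -0.15 in both of those first cases and was 1.03 in the last. The cause was not tested. Over all genes, calls in apigenin against control fell to 84 without the first apigenin array, against 581 with all arrays and 1290 without the other one; in TNF plus apigenin against apigenin they were 18, 91 and 598 in the same order. In TNF plus apigenin against control, 447 genes became 1233 after quantile normalisation.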
